A study of Mus musculus with 8 samples.

Results

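Heterotrimeric G protein subunit genes and the genes of their RGS (regulator of G protein signalling) proteins were examined in calvaria (the skull vault) from newborn Girk3 knockout and wild-type mice. A gene belonged to the set when its mouse symbol names a Gα subunit, one of Gnb1 to Gnb5, a numbered Gγ subunit or a numbered RGS gene, and when its raw counts summed to at least 80 over the 8 libraries. Of the 49315 genes in the count table, 56 carried such a symbol and 44 reached that total. They were 14 Gα, 5 Gβ, 9 Gγ and 16 RGS genes, and all 44 passed the filter on low counts used for the test across genes.

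The knockout group (KO) held 4 samples labelled Girk3-/- and the wild-type group (WT) 4 samples. All were calvaria of female C57BL6 mice aged 2 to 3 days, untreated as far as the labels say, and the labels name no other allele, no promoter and no targeting construct. Bulk RNA was sequenced from whole frozen bone, so every value averages over all the cells present. The comparison asks which transcripts of this signalling system differ between the genotypes.

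G protein-coupled receptors act through a trimer of Gα, Gβ and Gγ: an activated receptor makes Gα exchange GDP for GTP, Gα-GTP and Gβγ then act on separate effectors, and hydrolysis of the GTP ends the signal. RGS proteins speed that hydrolysis. Girk3, encoded by Kcnj9, is a subunit of the potassium channels that Gβγ opens after Gi/o-coupled receptors are activated. In bone, parathyroid hormone acts on osteoblasts through the Gs subunit encoded by Gnas.

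Library totals ran from 35.4 to 54.3 M counts in KO and from 42.7 to 49.6 M in WT. Kcnj9 (chr1:172320501-172329318, GRCm38) had 2, 5, 7 and 9 counts in the KO libraries and 0, 0, 1 and 4 in the WT libraries (exact permutation test of CPM, two-sided, p = 0.0571; the smallest p that 4 against 4 can give is 0.0286). Its counts were not lower in KO and lay near the counting floor, so they do not check the labels, and KO below means the libraries labelled so. The 7 osteoblast markers summed to between 81080 and 113300 CPM (counts scaled to a library size of 1 M) in KO and between 97170 and 111700 CPM in WT. Most of each sum was Col1a1, at a mean of 78420 CPM in KO and 85440 CPM in WT. None of the 7 was at 0 in any library, and 5 of 7 estimates were below 0. Bglap was called lower in KO, at 767 against 1072 CPM (edgeR's quasi-likelihood test, adjusted p = 0.0383). The 14 skeletal muscle markers summed to 49.7 and 162 CPM in KO replicates 2 and 3 and to 13.03 CPM in WT replicate 3, against 779 CPM or more in each other library. KO replicate 4 had the smallest total and the most genes with a count, 28520 against 24545 to 25729 in the others. Where an estimate of a member described singly changes sign or moves by over 1.5 times without KO replicate 4, or without the 3 libraries poor in muscle RNA, that value is given beside it. Of the receptors and effectors below, only the estimate of S1pr1 was followed through these alternatives, so the stability of the others is not known.

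Of the 44 genes, 1 differed between the genotypes at an adjusted p under 0.05 (edgeR's quasi-likelihood test, Benjamini-Hochberg adjustment over all genes): Rgs10, which fell. That is 2.27% of the members, beside 1.32% of all 17743 genes tested (234 genes, 155 of them lower in KO, 0.874%, and 79 higher, 0.445%). At an unadjusted p under 0.05 there were 9 members, 2 with a higher and 7 with a lower estimate in KO, beside 17.4% of all genes. DESeq2 called 3 members, Rgs10, Rgs5 and Rgs16, beside 7.06% of the 13911 genes it gave an adjusted p. With limma-voom 1 was called, Rgs10, beside 0.941% of all genes. Neither tool called a Gα, Gβ or Gγ gene. DESeq2 could not call members such as Gna15, Gna14 and Gnb3, to which it gave no adjusted p. The log2 fold change, KO over WT, was below 0 for 29 members and above 0 for 15, with a median of -0.087 (all genes tested, -0.000295). In 5 members the 4 KO libraries did not overlap the 4 WT libraries: Rgs10, Rgs16, Rgs5 and Rgs2 were lower in KO in all of them and Rgs7 was higher. This is 11.4% of the members, beside 10.6% of all genes tested (5.96% lower and 4.63% higher in KO). All 5 are RGS genes, and no Gα, Gβ or Gγ gene separated the groups. Rgs7 passed the filter on low counts chiefly through the KO libraries, where it is high.

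**Figure D1:**
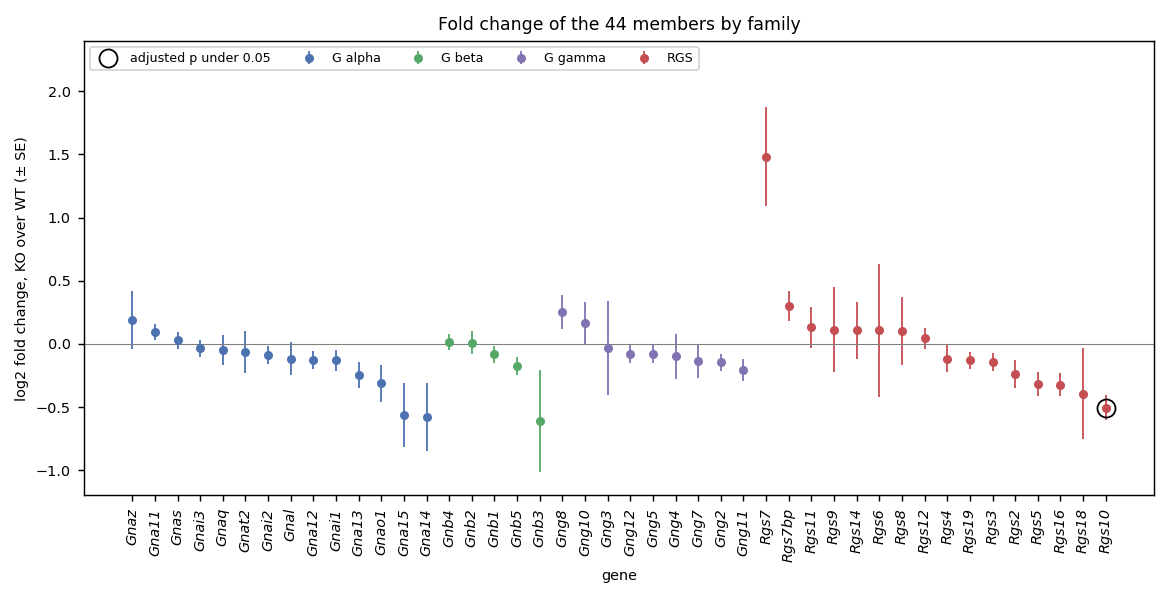
Log2 fold change of each of the 44 genes, KO over WT, with its standard error (vertical bars), grouped by family and ordered by value within each; 4 libraries per genotype. Only Rgs10, at -0.50, passed the adjusted threshold (ring), and Rgs7, at 1.48, had the highest estimate.

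Among the Gα genes the level per length was led by Gi and Gs. Gnai2, a Gi subunit that lowers cyclic AMP, held 125 ± 9.57 CPM per kb of exon in KO and 133 ± 2.06 CPM per kb in WT (SD, n = 4 each), the highest of all 44. Gnas followed within the family at 74.6 ± 5.23 CPM per kb in KO and 73.2 ± 1.16 CPM per kb in WT, and Gnai3, another Gi subunit that was picked after its level was seen, at 49.6 ± 0.759 and 50.8 ± 3.76 CPM per kb. Their order was the same in KO and WT, and the SDs of neighbours did not reach each other. That order depends on the annotated exon length, 11186 bases for Gnas and 3779 for Gnai2. In CPM, without that division, Gnas stood above Gnai2, at 834 against 473 CPM in KO and 819 against 504 CPM in WT.

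Gnas had 837, 801, 784 and 915 CPM in the KO libraries and 835, 803, 819 and 819 CPM in the WT libraries. The groups overlapped, with KO replicate 4 the highest, and the log2 fold change was 0.027 ± 0.0708 (SE, adjusted p = 0.883). Without that library it was -0.015, and without the 3 libraries poor in muscle RNA 0.11. Of the exon bases of Gnas, 22.0% overlap annotated genes on the opposite strand, so its counts are less certain. Gnai2 had 499, 431, 455 and 507 CPM in the KO libraries and 501, 507, 495 and 513 CPM in the WT libraries. KO replicates 2 and 3 lay below every WT library and the other 2 within their range (log2 fold change -0.091 ± 0.0719, adjusted p = 0.544). Without the libraries poor in muscle RNA, which include these 2, it was -0.0034.

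Gna13, a subunit of the G12/13 class, had the smallest p of the family. It had 70, 81.3, 85.2 and 64.7 CPM in the KO libraries and 76.6, 91.4, 96.4 and 93.0 CPM in the WT libraries. WT replicate 1 lay inside the KO range and the other 3 WT libraries above it (log2 fold change -0.25 ± 0.0996, adjusted p = 0.233).

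Gna15, a Gq-class subunit found mainly in blood-forming cells, had 1.08, 0.816, 0.859 and 0.789 CPM in the KO libraries and 0.900, 1.15, 1.74 and 1.45 CPM in the WT libraries. Gna14, of the same class, had 0.476, 0.568, 0.452 and 0.762 CPM in the KO libraries and 0.922, 0.769, 0.984 and 0.683 CPM in the WT libraries. Both had lower KO means with overlapping groups, and neither passed the test (log2 fold changes -0.56 ± 0.25 and -0.58 ± 0.269, adjusted p = 0.272 and 0.294). Without the libraries poor in muscle RNA these estimates were -0.31 and -0.35. Gnaq, the widely expressed Gq subunit that activates phospholipase C-β, had 87.5, 103, 95.8 and 63.6 CPM in the KO libraries and 86.3, 93.2, 91.1 and 91.3 CPM in the WT libraries. KO replicate 4 lay far below the rest and KO replicates 2 and 3 above every WT library. The log2 fold change of Gnaq was -0.050 ± 0.122 (adjusted p = 0.875), 0.081 without KO replicate 4 and -0.25 without the libraries poor in muscle RNA. Over the 14 Gα genes, 0 passed edgeR's test. An unadjusted p under 0.05 was found for 2 (Gna13 and Gna15), beside 17.4% of all genes tested. The estimates of 11 were below 0, with a family median of -0.10 and a range from -0.58 for Gna14 to 0.19 for Gnaz.

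**Figure D2:**
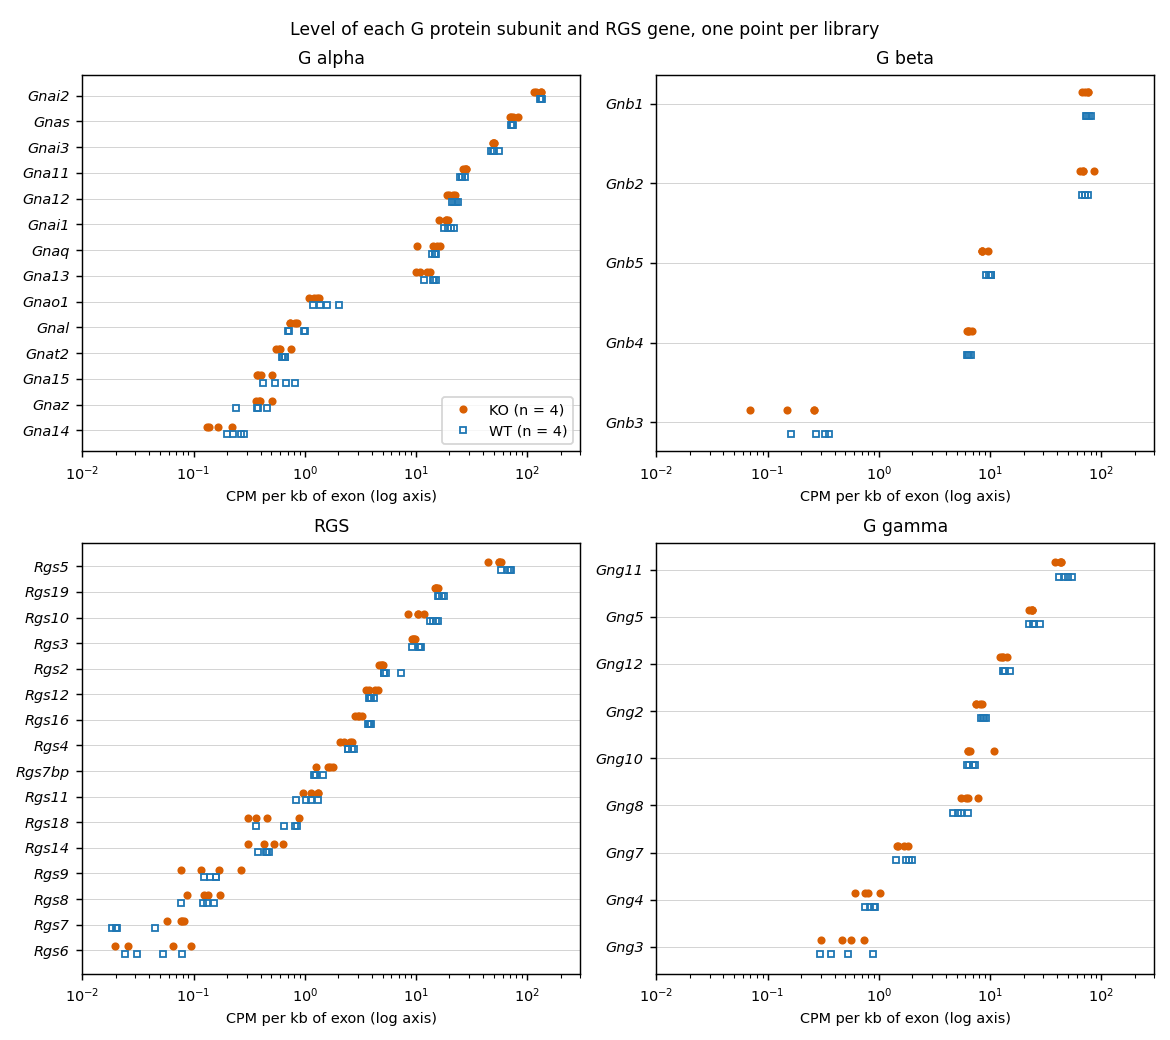
Level of each of the 44 genes in CPM per kb of exon on a log axis, 1 point per library, with KO as filled circles above WT as open squares and genes ordered by level within each family. Each family is led by 1 or 2 genes, and the KO and WT points overlap for all genes but Rgs10, Rgs16, Rgs5, Rgs2 and Rgs7.

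By level per length the Gβ family was carried almost wholly by Gnb1 and Gnb2. They made up 45.5% ± 3.99 and 44.9% ± 4.22 of the family's summed level per length in KO, and 46.6% ± 1.29 and 43.4% ± 1.35 in WT (SD, n = 4 each). Gnb1 had 307, 323, 321 and 286 CPM in the KO libraries and 332, 348, 319 and 311 CPM in the WT libraries, with overlapping groups (log2 fold change -0.083 ± 0.0699, adjusted p = 0.575). It was -0.042 without KO replicate 4 and -0.15 without the libraries poor in muscle RNA. Gnb2 had 231, 220, 234 and 293 CPM in the KO libraries and 258, 243, 227 and 244 CPM in the WT libraries. KO replicate 4 was again the highest of all 8, and the log2 fold change was 0.010 ± 0.0922 with it and -0.083 without it. Without the libraries poor in muscle RNA it was 0.089.

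Gnb5, the atypical Gβ that forms stable dimers with the R7 class of RGS proteins in place of a Gγ, had the smallest p among the Gβ genes. It had 26.3, 26.1, 29.5 and 26.5 CPM in the KO libraries and 31.7, 30.3, 31.9 and 28.4 CPM in the WT libraries. KO replicates 1, 2 and 4 lay below every WT library, and KO replicate 3 lay above WT replicate 4 (log2 fold change -0.17 ± 0.0714, adjusted p = 0.240). A gene annotated on the other strand covers 7.96% of its exon bases. Gnb3, best known from cone photoreceptors, had 0.693, 0.390, 0.181 and 0.680 CPM in the KO libraries and 0.720, 0.938, 0.425 and 0.870 CPM in the WT libraries. Within both genotypes its lowest values stood in the libraries with little muscle RNA, by -1.22 in KO and -0.91 in WT on the log2 scale (libraries poor in muscle RNA minus the others). The log2 fold change of Gnb3, KO over WT, was -0.61 ± 0.406 (adjusted p = 0.467). It was -0.29 without the libraries poor in muscle RNA and -0.55 with the muscle level as a covariate. Of the 5 Gβ genes 0 passed edgeR's test and 3 had estimates below 0. An unadjusted p under 0.05 was found for 1 (Gnb5), beside 17.4% of all genes tested.

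Gng11, a Gγ with a farnesyl lipid anchor, led the Gγ genes per length with 41.8 ± 2.49 CPM per kb in KO and 48.3 ± 5.78 CPM per kb in WT (SD, n = 4 each). It had 39.2, 34.98, 39.7 and 39.7 CPM in the KO libraries and 46.5, 50.5, 42.4 and 38.2 CPM in the WT libraries. WT replicate 4 lay within the KO range and the other 3 WT libraries above it (log2 fold change -0.21 ± 0.0886, adjusted p = 0.254). Gng5, a widely expressed Gγ, came next per length and had 66.3, 61.8, 65.5 and 66.1 CPM in the KO libraries and 77.3, 68.7, 67.0 and 61.6 CPM in the WT libraries. Its groups overlapped through WT replicate 4 (log2 fold change -0.080 ± 0.0751, adjusted p = 0.622). In CPM Gng5 lay above Gng11, whose annotated exons total 919 bases against 2765 for Gng5.

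Gng2 had 32.8, 37.2, 35.7 and 32.9 CPM in the KO libraries and 40.0, 38.2, 36.4 and 38.9 CPM in the WT libraries, and Gng12 had 67.5, 60.2, 58.0 and 61.4 CPM in the KO libraries and 61.6, 62.9, 71.6 and 64.9 CPM in the WT libraries. In both, the KO mean was lower and the groups overlapped (log2 fold changes -0.15 ± 0.0683 and -0.079 ± 0.073, adjusted p = 0.296 and 0.617). Without the libraries poor in muscle RNA that of Gng2 was -0.24 and that of Gng12 0.037. Gng8, a Gγ known from olfactory and vomeronasal neurons, went the other way in its estimate, with 8.29, 11.9, 9.58 and 9.30 CPM in the KO libraries and 9.65, 7.02, 7.87 and 8.28 CPM in the WT libraries. The groups overlapped through WT replicate 1 (log2 fold change 0.25 ± 0.132, adjusted p = 0.348; 0.087 without the libraries poor in muscle RNA). Gng10, picked after its values were seen, stood at 14.3 CPM in KO replicate 4 and between 8.10 and 9.55 CPM in the other 7 libraries. Its log2 fold change was 0.16 ± 0.169 (adjusted p = 0.661), -0.059 without KO replicate 4 and 0.37 without the libraries poor in muscle RNA. Since 71.99% of its exon bases are shared with the gene model Gm20503 on the same strand, its counts are less certain. Of the 9 Gγ genes 0 passed edgeR's test, and 7 had estimates below 0, with a family median of -0.080. An unadjusted p under 0.05 was found for 1 (Gng11), beside 17.4% of all genes tested.

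The RGS genes were led by Rgs5, a marker of pericytes. It held 53.4 ± 6.26 CPM per kb in KO and 66.5 ± 6.1 CPM per kb in WT, 49.8% ± 3.4 and 51.8% ± 2.53 of the summed level per length of the 16 RGS genes (SD, n = 4 each). Rgs19, of the RZ class, came next at 15.3 ± 0.441 and 16.7 ± 1.1 CPM per kb, and Rgs10 after it at 10.3 ± 1.38 and 14.6 ± 0.973 CPM per kb. Rgs19 and Rgs10 lay apart beyond their SDs in KO and within reach of them in WT. The summed level of the RGS family was 108, 112, 109.5 and 98.7 CPM per kb in the KO libraries and 119.8, 128.5, 132.5 and 132.2 CPM per kb in the WT libraries, so that each KO library lay below each WT library. For the Gα, Gβ and Gγ families the same sums overlapped between the genotypes. These sums are dominated by their leading genes and carry no test.

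Rgs10 is a small member of the R12 class, abundant in macrophages, microglia and other blood-derived cells, that acts on Gi-class subunits. Rgs10 (ENSMUSG00000030844, chr7:128373621-128418758, minus strand, GRCm38) had 14.6, 18.0, 20.3 and 17.8 CPM in the KO libraries and 23.0, 26.8, 26.0 and 24.4 CPM in the WT libraries. Every KO library lay below every WT library, with KO replicate 1 the lowest. On the log2 scale its level fell by 0.50 ± 0.0992 (adjusted p = 0.0311), at 17.7 ± 2.36 CPM in KO and 25.1 ± 1.66 CPM in WT (SD, n = 4 each). The estimate stayed between -0.61 and -0.42 in 17 alternative settings, and the call held in 10 of them. It was lost without KO replicate 1 (adjusted p = 0.0512), KO replicate 2 (0.101), WT replicate 2 (0.105), WT replicate 3 (0.0978) or WT replicate 4 (0.0659), without the 3 libraries poor in muscle RNA (0.225) and with unscaled library totals (0.0719).

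Macrophage and osteoclast markers are given beside Rgs10 because it is abundant in cells of that lineage. The 10 macrophage markers summed to between 493 and 573 CPM in KO and between 635 and 810 CPM in WT. All 10 had estimates below 0, of which Ctss, Lyz2 and Cx3cr1 passed the test, and none was at 0 in any library; the sums did not overlap. The 7 osteoclast markers summed to between 3940 and 5993 CPM in KO and between 5648 and 8377 CPM in WT, with overlapping sums, 7 of 7 estimates below 0 and 0 called. The part of these cells in the Rgs10 difference was not tested, and in bulk tissue fewer cells of a type cannot be told apart from less RNA per cell.

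**Figure D3:**
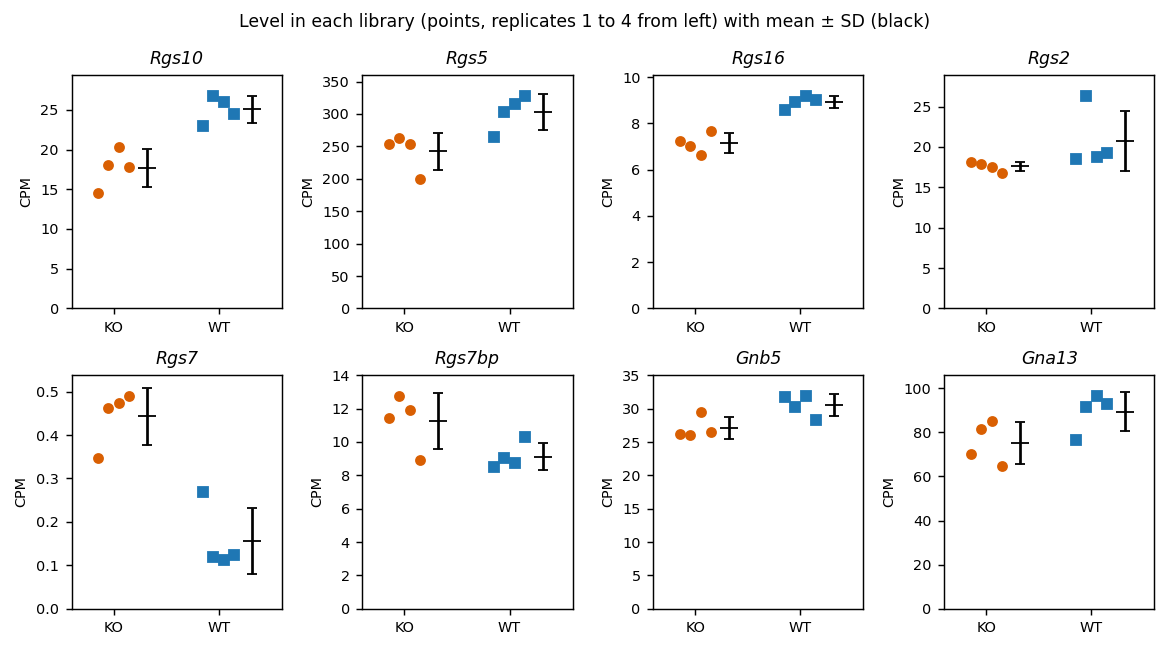
Level in CPM of the 5 genes whose groups did not overlap and of 3 further genes (Rgs7bp, Gnb5 and Gna13), 1 point per library with KO left of WT, and the group mean ± SD in black (n = 4 each). Rgs10 lies between 14.6 and 20.3 CPM in KO and between 23.0 and 26.8 CPM in WT, while Rgs7 lies under 0.5 CPM in every library.

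Because these 5 genes separated the genotypes, the 250 bases before each start site are shown, from RefSeq on GRCm38.p6, 5′ to 3′ on the strand of the gene. They are chr7:128418173-128418422 for Rgs10 (minus strand, 76.4% G+C), chr1:153740103-153740352 for Rgs16 (plus strand, 66.4%), chr1:169655251-169655500 for Rgs5 (plus strand, 53.6%), chr1:144004150-144004399 for Rgs2 (minus strand, 72.4%) and chr1:175492546-175492795 for Rgs7 (minus strand, 72.4%). Capitals mark the letters TGACG (the core of the cyclic AMP response element) on either strand. The set was chosen after the values were seen. The RefSeq start of Rgs10 differs from the GENCODE one: its window lies inside the GENCODE span of the gene, chr7:128373621-128418758. The bases before that GENCODE start were not searched.
Rgs10: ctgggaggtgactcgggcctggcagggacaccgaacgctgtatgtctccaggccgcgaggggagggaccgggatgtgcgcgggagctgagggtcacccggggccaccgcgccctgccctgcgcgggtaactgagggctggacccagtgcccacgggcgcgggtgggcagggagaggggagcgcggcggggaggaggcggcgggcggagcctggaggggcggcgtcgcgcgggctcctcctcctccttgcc
Rgs16: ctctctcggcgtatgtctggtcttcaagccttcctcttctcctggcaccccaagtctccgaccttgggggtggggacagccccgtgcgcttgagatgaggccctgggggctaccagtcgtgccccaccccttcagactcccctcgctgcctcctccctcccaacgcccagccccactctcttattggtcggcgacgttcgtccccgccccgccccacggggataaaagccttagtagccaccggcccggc
Rgs5: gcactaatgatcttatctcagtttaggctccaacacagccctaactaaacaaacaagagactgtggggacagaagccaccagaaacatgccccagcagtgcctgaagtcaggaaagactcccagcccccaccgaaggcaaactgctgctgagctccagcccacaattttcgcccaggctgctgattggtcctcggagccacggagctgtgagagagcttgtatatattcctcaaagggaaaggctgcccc
Rgs2: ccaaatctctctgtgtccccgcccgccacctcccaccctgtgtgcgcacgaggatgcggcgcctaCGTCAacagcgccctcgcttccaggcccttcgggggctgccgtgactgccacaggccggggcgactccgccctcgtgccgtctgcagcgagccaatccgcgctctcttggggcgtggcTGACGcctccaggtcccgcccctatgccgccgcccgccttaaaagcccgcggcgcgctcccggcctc
Rgs7: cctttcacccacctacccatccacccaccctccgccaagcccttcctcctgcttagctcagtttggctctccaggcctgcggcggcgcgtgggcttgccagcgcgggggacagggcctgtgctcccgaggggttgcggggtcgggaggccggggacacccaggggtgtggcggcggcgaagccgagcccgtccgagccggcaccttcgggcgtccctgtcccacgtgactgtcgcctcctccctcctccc

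The letters TGACG occurred 2 times before Rgs2, 185 and 67 bases ahead of the start site, and in none of the other 4 windows. They were found on either strand in the windows of 9 of the 35 members with a window (25.7%: Gnas, Gnb1, Gng4, Gng7, Rgs12, Rgs2, Rgs4, Rgs7bp and Rgs8) and in 19.8% of the 27025 genes with one. The letters TGANTCA of the AP-1 site, bound by Fos and Jun dimers, were in 2 members' windows, those of Gng2 and Rgs12, and in 7.82% of all genes' windows. The full response element TGACGTCA, which contains that core on both strands, was in 0 members' windows and in 1.77% of all. A match here is a run of letters, not a site shown to be bound.

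Rgs16, Rgs5 and Rgs2 belong to the R4 class, short RGS proteins that act on Gi and Gq subunits. Rgs16 (chr1:153740349-153745468) had 7.25, 7.01, 6.64 and 7.67 CPM in the KO libraries and 8.59, 8.92, 9.19 and 9.03 CPM in the WT libraries. The groups did not overlap, but the difference did not pass the test (log2 fold change -0.32 ± 0.0935, adjusted p = 0.116). With DESeq2 the adjusted p was 0.0293. A gene annotated on the other strand covers 10.1% of its exon bases.

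Rgs5 (chr1:169655501-169695813) had 254, 263, 253 and 200 CPM in the KO libraries and 264, 303, 316 and 328 CPM in the WT libraries. KO replicate 2 and WT replicate 1 lay next to each other, and KO replicate 4 lay far below the rest. The log2 fold change was -0.32 ± 0.0977 (adjusted p = 0.131), -0.23 (adjusted p = 0.126) without KO replicate 4, and DESeq2 gave an adjusted p of 0.0360. The 7 pericyte and smooth muscle markers summed to between 603 and 745 CPM in KO and between 655 and 782 CPM in WT, with 5 of 7 estimates below 0 and 0 called, and none at 0.

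Rgs2 (chr1:143999338-144004161), which is induced quickly by cyclic AMP and parathyroid hormone in osteoblasts and acts chiefly on Gq, had 18.2, 17.8, 17.5 and 16.8 CPM in the KO libraries and 18.5, 26.3, 18.8 and 19.3 CPM in the WT libraries. WT replicate 2 stood far above the other 7, which spanned 16.8 to 19.3 CPM (log2 fold change -0.24 ± 0.11, adjusted p = 0.292). Without that library the estimate was -0.10 (adjusted p = 0.614). The 14 immediate early genes, which include Fos and Jun, summed to between 217 and 245 CPM in KO and between 364 and 456 CPM in WT, highest in WT replicate 2. Of these 14 genes 13 had estimates below 0 and 9 passed the test. The part of that difference in the level of Rgs2 was not tested.

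Rgs1, another R4 gene of leukocytes, had only 43 counts in all, below the total required, with 7, 6, 6 and 0 in the KO libraries and 12, 3, 4 and 5 in the WT libraries. Rgs19, which acts on Gi-class subunits, had 33.6, 33.7, 33.4 and 35.5 CPM in the KO libraries and 40.2, 35.6, 38.3 and 34.9 CPM in the WT libraries. KO replicate 4 lay above WT replicate 4, and the other KO libraries lay below all WT libraries (log2 fold change -0.13 ± 0.0679, adjusted p = 0.347).

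The R7 class, known from neurons, pairs with Gnb5 and is held at the membrane by the protein of Rgs7bp. Its members Rgs6, Rgs7, Rgs9 and Rgs11 were low in calvaria, at or under 1.13 CPM per kb on average over the 8 libraries. Rgs7 (ENSMUSG00000026527, chr1:175059087-175492500) had 0.346, 0.461, 0.475 and 0.490 CPM in the KO libraries and 0.270, 0.120, 0.112 and 0.124 CPM in the WT libraries. Every KO library lay above every WT library, and WT replicate 1 stood above the other 3 WT libraries. The log2 fold change of 1.48 ± 0.392 rested on 109 counts in all and did not pass the test (adjusted p = 0.0915). The estimate ran from 1.27 to 1.87 in 16 alternatives, none of which gave an adjusted p under 0.05.

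Rgs7bp, named after its values were seen, had 11.4, 12.8, 11.9 and 8.89 CPM in the KO libraries and 8.48, 9.02, 8.74 and 10.3 CPM in the WT libraries. KO replicates 1, 2 and 3 lay above every WT library and KO replicate 4 among them (log2 fold change 0.30 ± 0.119, adjusted p = 0.220). Without KO replicate 4 the adjusted p was 0.0468, and without the libraries poor in muscle RNA the estimate was 0.14. The 8 neuronal markers, which could accompany the R7 genes, summed to between 32.3 and 49.1 CPM in KO and between 26.6 and 63.9 CPM in WT, with 3 of 7 tested estimates below 0 and 1 marker at 0 in a library. The 5 glial markers summed to between 17.9 and 18.3 CPM in KO and between 25.6 and 35.6 CPM in WT, with 5 of 5 estimates below 0 and 2 called lower. Neither list was tested for a part in the Rgs7 or Rgs7bp values.

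Of the 44 genes, 7 lie on chromosome 1 with Kcnj9, all of them RGS genes. Distances from Kcnj9 were -28.3 Mb for Rgs2, -27.5 Mb for Rgs18, -18.6 Mb for Rgs8 and Rgs16, -2.62 Mb for Rgs5, -2.57 Mb for Rgs4 and 2.73 Mb for Rgs7, a negative value lying at lower coordinates. Of these 7, 0 passed edgeR's test. An unadjusted p under 0.05 was found for 3 (Rgs7, Rgs16 and Rgs5), beside 17.4% of all genes tested. DESeq2 called Rgs5 and Rgs16, beside 7.06% of all genes to which it gave an adjusted p. For 4 of the 7 (Rgs2, Rgs16, Rgs5 and Rgs7), all among the 5 members above, the groups did not overlap, beside 10.6% of all genes tested. Of the 109 tested genes within 5 Mb of Kcnj9, 15 passed the test (13.8%), beside 1.32% of all genes. Rgs5, Rgs4 and Rgs7 are 3 of those 109 and none was among the 15. Rgs7 entered the test chiefly through its KO libraries, as given above. Rgs4, an R4 gene next to Rgs5, had 7.04, 7.86, 6.44 and 8.24 CPM in the KO libraries and 8.30, 7.57, 8.65 and 7.52 CPM in the WT libraries, with overlapping groups (log2 fold change -0.12 ± 0.111, adjusted p = 0.631; -0.023 without the libraries poor in muscle RNA). So the neighbouring pair Rgs5 and Rgs4 had estimates of -0.32 and -0.12, and Rgs7, on the other side of Kcnj9, 1.48.

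**Figure D4:**
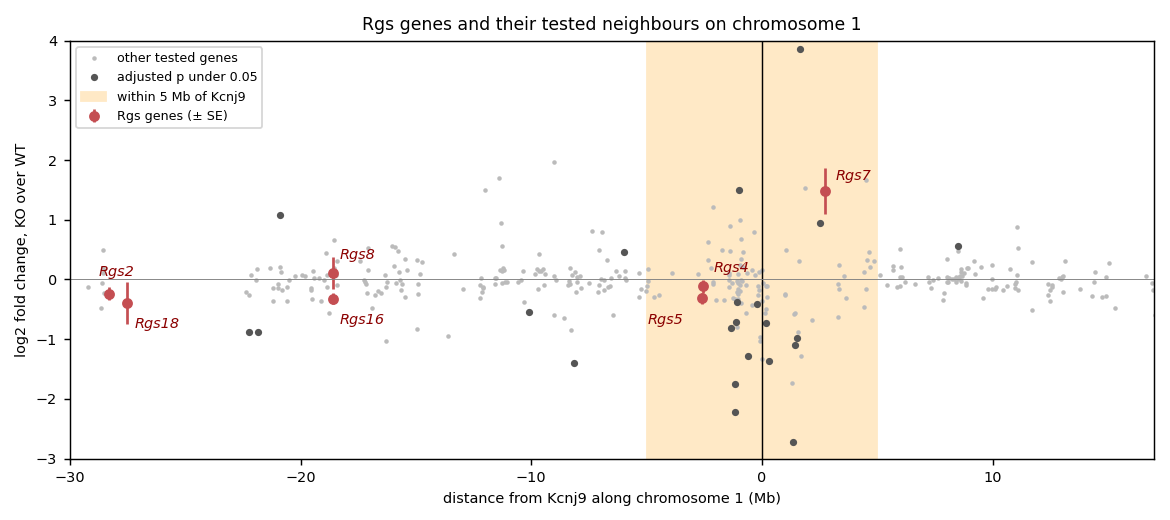
Log2 fold change, KO over WT, of tested genes on chromosome 1 against distance from Kcnj9 in Mb, with the 7 RGS genes in red (± SE), other genes at an adjusted p under 0.05 in dark grey, the rest in light grey and the 5 Mb on each side of Kcnj9 shaded. Rgs5 and Rgs4 lie just below 0 and Rgs7 at 1.48 inside the shaded stretch, where 13.8% of tested genes passed the test.

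Over the 16 RGS genes, 8 estimates were below 0 and 8 above, with a median of -0.036 against -0.000295 for all genes. The members not described singly ran from -0.39 for Rgs18, an R4 gene of platelets and blood-forming cells, to 0.13 for Rgs11. The estimate of Rgs18 was -0.82 without KO replicate 2 and -0.22 without KO replicate 3. Of 2 abundant genes picked after their values were seen, Rgs3 was at 102.8 ± 2.23 CPM in KO and 113 ± 9.45 CPM in WT, and Rgs12 at 34.5 ± 3.89 CPM in KO and 33.4 ± 1.57 CPM in WT (SD, n = 4 each). That of Rgs12, 0.043 on the log2 scale, was 0.16 without the libraries poor in muscle RNA and 0.019 without KO replicate 4. None of these passed the test.

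Spread between libraries was like that of other genes: the median SD of log2 CPM over the 8 libraries was 0.202 for the 44 members and 0.188 for all genes tested. In 3 members the libraries poor in muscle RNA differed from the others by more than 0.3 on the log2 scale, in the same direction, within both genotypes. They were Gnb3 (above), Gng3 at -0.46 in KO and -0.47 in WT, and Rgs18 at 0.36 in KO and 0.45 in WT. KO replicate 4 gave the highest value of all 8 libraries for Gnas, Gnaz, Gnb2, Gnb4, Gng10, Rgs6, Rgs7, Rgs9 and Rgs11. It gave the lowest for Gnai1, Gnaq, Gna13, Gna15, Gnb1, Rgs2 and Rgs5.

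**Figure D5:**
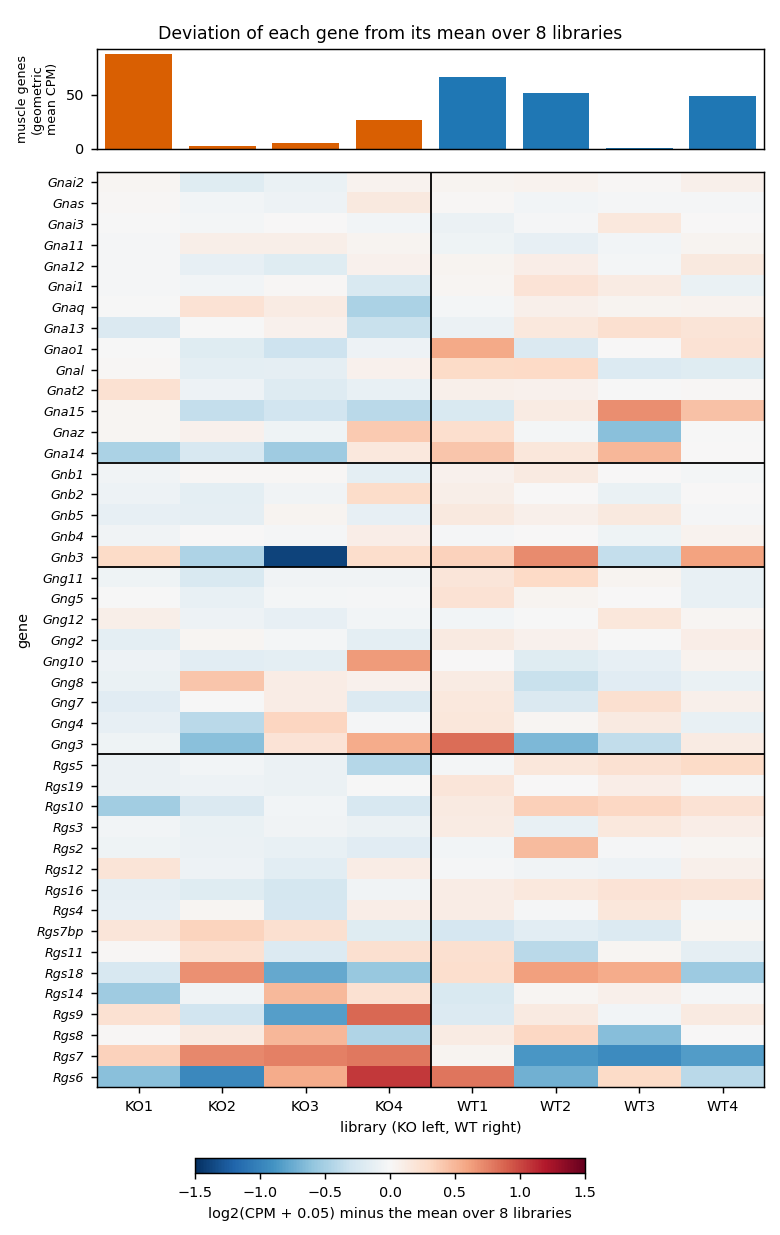
Deviation of each of the 44 genes in each library from its mean over the 8 libraries, on the log2(CPM + 0.05) scale (red higher, blue lower), with KO libraries left of WT and families separated by lines; bars above give the geometric mean CPM of the 14 muscle markers. Rgs10, Rgs16 and Rgs5 are bluer in KO, Rgs7 is redder in KO, and most other genes show no split by genotype.

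Receptors and effectors that work with these proteins were read from the same fit. Of 71 listed genes 63 were tested and 1 passed, or 1.59% beside 1.32% of all genes: 0 of 36 effectors and partners and 1 of 27 receptors by edgeR. At an unadjusted p under 0.05 there were 7 in each list, beside 17.4% of all genes tested. DESeq2 called 5 genes over both lists, beside 7.06% of all genes to which it gave an adjusted p. The receptor was S1pr1, the Gi-coupled receptor for sphingosine-1-phosphate, known for guiding osteoclast precursors and for its abundance in endothelium. S1pr1 (chr3:115710433-115715072) had 152, 129, 132 and 128 CPM in the KO libraries and 180.4, 199.6, 197 and 194 CPM in the WT libraries. Every KO library lay below every WT library, and the level fell by 0.51 ± 0.0747 (log2 scale, adjusted p = 0.00811). Without the 3 libraries poor in muscle RNA the estimate was -0.45 and the adjusted p 0.338. The 5 endothelial markers summed to between 444 and 565 CPM in KO and between 481 and 573 CPM in WT, with 5 of 5 estimates below 0, 0 called and none at 0, and their part in the S1pr1 difference was not tested.

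Among the effectors the smallest p values belonged to Pik3r5, a regulatory subunit of the Gβγ-activated PI3-kinase of leukocytes, and Gpsm1, which binds GDP-bound Gi subunits. Pik3r5 had 9.94, 8.68, 7.59 and 7.07 CPM in the KO libraries and 9.79, 12.1, 12.97 and 17.1 CPM in the WT libraries, which overlapped through KO replicate 1 and WT replicate 1 (log2 fold change -0.64 ± 0.163, adjusted p = 0.0825). Gpsm1 had 59.9, 58.6, 59.6 and 69.3 CPM in the KO libraries and 53.9, 48.5, 51.5 and 51.7 CPM in the WT libraries. Its KO libraries all lay above the WT libraries (log2 fold change 0.27 ± 0.0718, adjusted p = 0.0966).

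Of the other receptors, named after their values were seen, P2ry6, a Gq-coupled receptor for UDP, had 6.84, 5.09, 3.84 and 5.49 CPM in the KO libraries and 7.31, 8.87, 9.52 and 9.03 CPM in the WT libraries. F2r, the thrombin receptor that couples to Gq, Gi and G12/13 subunits, had 55.2, 49.9, 56.7 and 53.9 CPM in the KO libraries and 59.8, 73.0, 70.4 and 67.7 CPM in the WT libraries. In both genes the KO libraries lay below every WT library, and the differences missed the threshold (log2 fold changes -0.71 ± 0.162 and -0.33 ± 0.076, adjusted p = 0.0537 and 0.0552). Pth1r, the parathyroid hormone receptor upstream of Gnas, was at 334 ± 24.5 CPM in KO and 332 ± 19.7 CPM in WT (SD, n = 4 each; adjusted p = 0.978).

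The total of 80 counts that bounds the set fell among genes of very low level. Just inside it were Rgs7 with 109 and Rgs6 with 171 counts, and just outside Rgs9bp with 77, Rgs17 with 73 and Rgs20 with 53. The other genes below it were Rgs22 with 45, Rgs1 with 43, Gnat1 with 32, Gnat3 with 20, Gng13 with 17, Rgs13 with 15 and the pseudogene Gng5-ps with 5 counts, while Rgs21 and the pseudogene Gng2-ps1 had 0.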

How the data were processed

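Counts came from bulk RNA sequencing of 8 calvaria libraries (NEBNext Ultra II RNA kit), per the labels' protocols. The authors deposited raw counts per Ensembl gene, 1 column per library, with no normalization. The submitters' processing notes list STAR 2.5.2b, featureCounts (Subread 1.5.2), bcl2fastq 2.17 and mm10. Annotation release and strand setting were not given in the sources used here. The counts of genes that overlap on opposite strands are therefore less certain. Positions and exon lengths are those of GENCODE mouse release 21 (GRCm38).

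Groups came from the titles. Genes were kept by edgeR's filterByExpr (minimum count 10, minimum total 15), and all 44 members passed. Counts were tested with edgeR 4.0.16 (TMM factors, robust quasi-likelihood test, two-sided, R 4.3.3), KO over WT, with Benjamini-Hochberg adjustment over the 17743 genes tested and a threshold of 0.05. The steps of the fit were also run on counts simulated from these data with known folds, which does not check the estimates given here. CPM used TMM-scaled totals, and CPM per kb divided them by the merged length of all annotated exons of the gene. Ranks by level per length therefore depend on that annotation. A floor of 3 counts was at most 0.0848 CPM, which covers counting error only. The p-values judge the difference between genotypes against the spread within each genotype, and treat the 8 samples as independent. The labels do not say which samples share a litter or preparation, so that independence is not known.

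Named were members past the threshold, the 3 of smallest p in each family, RGS genes within 5 Mb of Kcnj9, the 2 highest per length in each family, a fixed list (Gnas, Gnai2, Gnaq, Gna13, Gnb1, Gng12, Rgs1, Rgs2, Rgs5 and Rgs16), Kcnj9, and of the pathway lists the genes past the threshold or otherwise the 2 of smallest p; other genes given with values are marked or stand in summaries. Members, lists and markers were chosen with earlier results of these data known. Alternatives were other normalizations (RLE factors, library totals), filters, DESeq2 1.42.0, limma-voom (limma 3.58.1), the replicate number as a block, a muscle covariate, and leaving libraries out. Figures were drawn with matplotlib 3.10.9.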

Additional observations from a re-analysis of the deposited data

Results flagged for a closer look

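In 5 of the 44 groups of 4 libraries examined (both genotypes of each named gene), 1 library stood far from the other 3 of its group; chance marks about 1 in 20 such groups. Rgs5 was at 200.4 CPM in KO replicate 4, against 253 to 263 CPM in the other KO libraries. Gng11 was at 34.98 CPM in KO replicate 2, against 39.2 to 39.7 CPM in the others, and Gnb5 at 29.5 CPM in KO replicate 3, against 26.1 to 26.5 CPM. Among the WT libraries, Rgs2 was at 26.3 CPM in replicate 2, against 18.5 to 19.3 CPM in the others, and Rgs7 at 0.270 CPM in replicate 1, against 0.112 to 0.124 CPM.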

How the results depend on the processing

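The count of members past the threshold was 1 in the fit reported. It was 0 with library totals, 3 with DESeq2 (Rgs10, Rgs5 and Rgs16), 0 without the 3 libraries poor in muscle RNA, and 0 to 2 when each library was left out in turn: 0 without KO replicates 1 or 2 or WT replicates 2, 3 or 4, and 2 (Rgs10 and Rgs7bp) without KO replicate 4. Over all genes 234 passed. There were 355 with no filter, 982 with DESeq2, 8 without the 3 muscle-poor libraries and 57 to 608 with 1 library left out (57 without KO replicate 2, 82 without KO replicate 3, 608 without KO replicate 4, 79, 75 and 105 without WT replicates 2, 3 and 4). Library totals gave 113 higher and 99 lower in KO, against 79 higher and 155 lower with TMM factors. Of the pathway partners 1 passed; there were 3 with no filter, 5 with DESeq2, 2 with the muscle covariate, 0 without the muscle-poor libraries, and 1 to 4 with 1 library left out (2 without KO replicate 1 or 4, and 4 without WT replicate 1). With the replicate number as a block 1 member and 126 genes in all passed, but the numbers do not pair the samples: same-numbered libraries had correlations of deviations of 0.255, -0.179, 0.34 and -0.00498, and 1 of 8 samples correlated best with its own number. Estimates near 0 changed sign for Gnas (-0.015 to 0.055 with 1 library left out, lowest without KO replicate 4), Gnaq (0.00315 with library totals, -0.13 to 0.081 with 1 library left out, highest without KO replicate 4), Gnb2 (-0.083 to 0.068 with 1 library left out, -0.083 without KO replicate 4 and -0.013 without WT replicate 3) and Gng12 (0.037 without the muscle-poor libraries). Over all 44 members the estimate changed sign in some alternative for 15, these 4 among them. Of the other values of named genes under an alternative, 372 kept their direction and side of the threshold, 8 lost and 2 gained a call. In these counts a value with no adjusted p stood as not called, such as those of Gna15, Gna14, Gnb3 and Rgs7 with DESeq2. The causes of these changes were not tested, beyond the smaller number of libraries. Members below 0 numbered 26 to 34 over the alternatives. Under the filter of 1 CPM 38 of the 44 members had a value, Rgs7 not among them. DESeq2 gave Rgs7 no adjusted p, nor did it give one to Gna15, Gna14 or Gnb3. No member needed the planned test for genes below the filter. At this depth genes such as Rgs7, with 109 counts in all, carry wide errors.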

Other observations

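Beyond S1pr1, P2ry6, F2r and Gpsm1, 3 further genes of the receptor and effector lists separated the genotypes in all 8 libraries without passing the test; they were picked out after their values were seen. Adcy9, an adenylyl cyclase, had 13.5, 11.5, 13.8 and 11.7 CPM in the KO libraries and 4.93, 6.08, 10.6 and 10.9 CPM in the WT libraries (log2 fold change 0.64 ± 0.242, adjusted p = 0.227). Cxcr4, the Gi-coupled receptor for the chemokine CXCL12, had 13.1, 17.1, 13.9 and 12.1 CPM in the KO libraries and 11.3, 11.6, 11.6 and 10.8 CPM in the WT libraries (log2 fold change 0.31 ± 0.107, adjusted p = 0.170). Arrb2, a β-arrestin that uncouples receptors from G proteins, had 21.04, 22.5, 19.5 and 22.7 CPM in the KO libraries and 25.8, 27.0, 23.8 and 24.4 CPM in the WT libraries (log2 fold change -0.24 ± 0.0763, adjusted p = 0.151). Over both lists the groups did not overlap for 3 genes higher and 4 lower in KO, 11.1% of those tested, beside 10.6% of all genes.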
